A study of Mus musculus with 3 samples.

Results

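The enzyme genes belong to families that place, remove and read methyl and acetyl groups on histone lysines, though some members act on other substrates. They were the genes whose mouse symbol belongs to the lysine demethylases (Kdm), the lysine methyltransferases and SET domain genes (Kmt2, Setd, Setdb, Ehmt, Suv39h, Nsd and Dot1l), the histone deacetylases (Hdac), the sirtuins (Sirt), the lysine acetyltransferases (Kat) or the numbered bromodomain proteins (Brd). Of 72 genes with such a symbol in the RefSeq gene table, 51 had a named probe on the array, and these 51 were represented by 100 probes among 35078 mouse probes and 15597 named genes. The 21 genes with no named probe, namely Kmt2a to Kmt2e, Setd1b, Setd2, Setd6, Setdb2, Nsd2, Kdm2b, Kdm3a, Kdm3b, Kdm5a, Kdm6b, Kdm7a, Kat6a, Hdac8, Sirt4, Brd1 and Brd9, were not analysed here.

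RNA was taken from sheets of RPE, the retinal pigment epithelium that supports the photoreceptors, which were shaken from the eyecups of C57BL/6 mice of 2.5–3 months after trypsin digestion. There were 3 samples in 1 group, called independent biological replicates in the series, with no control group and no treatment or transgene. The sex of the animals and their number per sample are not given in the labels. Each sample was hybridised in 1 colour to a mouse exonic evidence-based oligonucleotide (MEEBO) array.

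Histone methylation marks different states of chromatin according to the lysine that carries it. Methylated H3K4 lies at active promoters and enhancers, H3K36 methylation in transcribed gene bodies, H3K27 trimethylation in Polycomb-silenced regions and H3K9 trimethylation in heterochromatin. Methyltransferases draw the methyl group from S-adenosylmethionine, most demethylases need iron and 2-oxoglutarate, acetyltransferases use acetyl-CoA and sirtuins use NAD. Acetylated lysines are recognised by bromodomains, and the study concerns the epigenetic state of adult RPE.

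Intensity was the median foreground minus the median local background of a spot. Averaged over mouse probes it was 831 on replicate 1, 476 on replicate 2 and 316 on replicate 3. The 95th percentile of 94 negative control spots, which served as the detection threshold of each array, lay at 133, 72.4 and 53.85. The brightest of these spots reached 1623, 729 and 265, more than some called genes, such as Kat2a, had on every array. A probe was called when its normalized log2 intensity exceeded the threshold of its array in limma over the 3 arrays, one-sided, at an adjusted p under 0.05, and a gene was called when any of its probes was. The level of a gene is given below as a log2 difference from the threshold, averaged over the 3 arrays with its SD (n = 3), for its probe with the largest limma statistic. The background correction adds an offset before the logarithm, so a level understates the fold over the threshold in foreground minus background, most of all for dim probes. Levels of single genes were not compared between probes, and a gene that was not called was not detectable with these probes, which does not show that its transcript was absent. No spot of an enzyme gene was saturated on any array.

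The arrays differed in their content of other cells. RPE markers were called in 11 of 12 genes, among them Rpe65, Otx2 and Mitf, and only Best1 was not. Markers of corneal epithelium were above the threshold in 0 of 4 genes on replicate 1 but in 4 of 4 on replicates 2 and 3, with summed intensities of 259, 48548 and 60120 on replicates 1, 2 and 3. The corneal keratin Krt12 alone had an intensity of 90, 16428 and 25864. Rod photoreceptor markers were above the threshold in 2, 3 and 5 of 9 genes, with summed intensities of 2090, 1059 and 3994. Markers of retinal neurons other than photoreceptors were above it in 1, 0 and 1 of 6 genes, of endothelium in 1, 2 and 1 of 5, of fibroblasts in 2, 2 and 4 of 6, and of blood in 2 of 3 on each array. RNA of such cells and RNA of RPE cells cannot be separated in these samples, and its part in the levels below was not tested. In bulk samples fewer cells of a type and less RNA per cell cannot be told apart either.

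Adult RPE samples gave signal for most of the enzyme genes. Of 51 genes, 35 (68.6%) were called, beside 39.8% of all named genes. On single arrays 38, 40 and 39 of the 51 had a probe above the threshold (74.5%, 78.4% and 76.5%), beside 45.0%, 46.9% and 47.1% of all named genes. All 35 called genes had a called probe above the threshold on each of the 3 arrays, which is nearly given by a call made over the same arrays. Of the 100 probes of these genes 46 (46.0%) were called, beside 31.5% of named probes and 25.5% of all mouse probes (8931 of 35078), and 48 had an unadjusted p under 0.05, beside 27.3% of all mouse probes. The median level of the 51 genes was 1.19, beside -0.18 for all named genes, which describes these lists on different probes and does not rank their transcripts. The count of called genes was 34, 30 and 36 (66.7%, 58.8% and 70.6%) when replicate 1, 2 or 3 was left out. The shares of all named genes were then 39.6%, 36.3% and 40.5%.

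**Figure D1:**
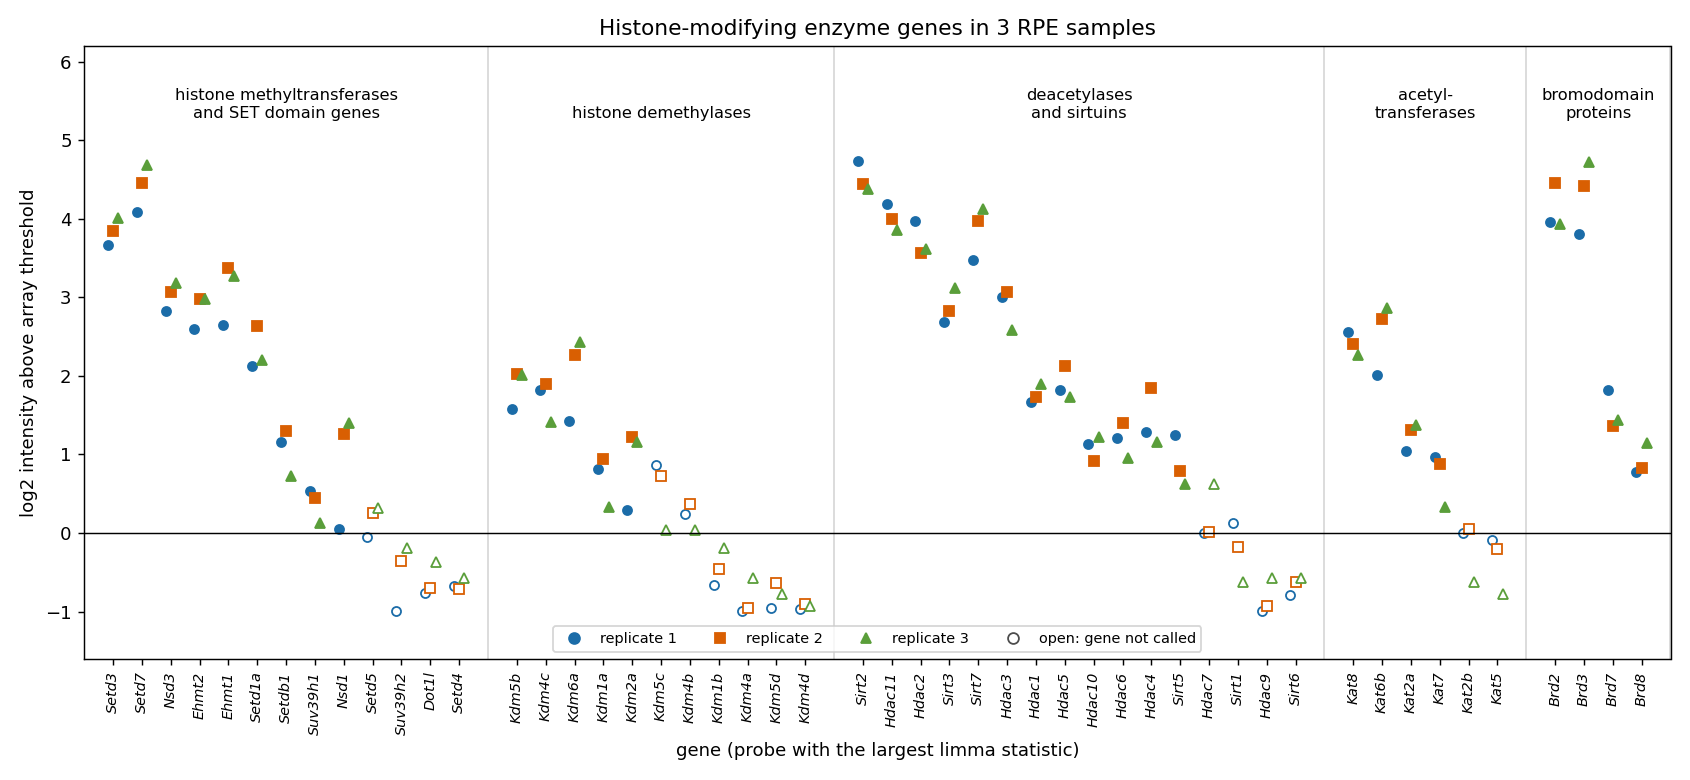
Normalized log2 intensity above the threshold of each array (vertical axis) for 50 enzyme genes (horizontal axis), by enzyme group and ordered by the limma statistic, with 1 point per replicate. Filled symbols mark the 34 called genes shown and open symbols the 16 that were not called. The 4 bromodomain genes shown are all filled, and 6 of the 11 demethylases are open.

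The groups of enzymes were called at different shares. The calls covered 12 of 16 deacetylases and sirtuins (75%), 9 of 13 methyltransferases and SET domain genes (69.2%), 4 of 6 acetyltransferases (66.7%) and 5 of 11 demethylases (45.5%), beside the same 39.8% of all named genes. The bromodomain genes are described one by one below. Of these 4 shares that of the demethylases was closest to the share of all genes. Their count was 3 of 11 without replicate 2 and 7 of 11 without replicate 3, beside 36.3% and 40.5% of all named genes. By probes, demethylases and acetyltransferases were both called at 28.6%, beside 31.5% of named probes. Under a rule of more than 50% of a gene's probes called, the shares were 33.3% for acetyltransferases and 36.4% for demethylases. The share of all named genes was then 27.7%. No test of the difference between groups was made.

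**Figure D2:**
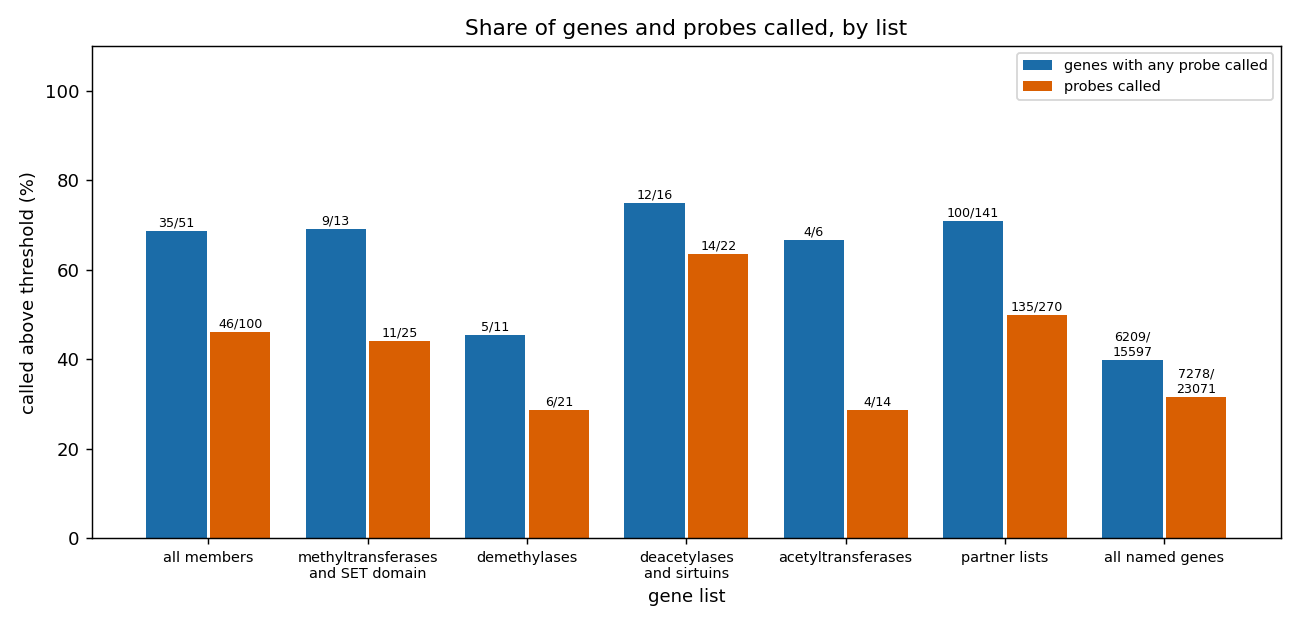
Share of genes with any called probe and share of probes called (vertical axis, percent) for the enzyme genes, 4 of their groups, the partner genes and all named genes, with counts above the bars. Genes were called at 68.6% of all members and 39.8% of all named genes. By genes the demethylases were lowest of the 4 groups shown, at 45.5%, and by probes they and the acetyltransferases were both at 28.6%.

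Among the writers of H3K4 methylation both measured genes were called, beside 39.8% of all named genes. Setd7, which methylates H3K4 and several non-histone proteins, had an intensity of 4297, 2633 and 2017 on replicates 1, 2 and 3 (level 4.41 ± 0.31, adjusted p = 3.80e-06). All 3 arrays were far above their thresholds with this probe, but the other probes of Setd7, 2 of 3, were below the threshold on every array. Setd1a, a catalytic subunit of the COMPASS complexes that trimethylate H3K4 at promoters, had 1018, 720 and 329 (2.32 ± 0.28). Its single probe was above the threshold on each array.

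The H3K9 methyltransferases were called in 4 of 5 genes. Ehmt1 and Ehmt2 form the heterodimer that dimethylates H3K9 in euchromatin. Ehmt1 had 1524, 1219 and 730 (3.10 ± 0.39), and Ehmt2 had 1451, 918 and 586 (2.85 ± 0.22). In both, only 1 probe was called, of 4 for Ehmt1 and of 2 for Ehmt2. Setdb1, which trimethylates H3K9 at retroelements, had 450, 249 and 104 (1.06 ± 0.29, adjusted p = 0.00109). Suv39h1, which maintains H3K9 trimethylation at pericentromeric repeats, had 248, 116 and 61 (0.37 ± 0.22, adjusted p = 0.0327). This was close to the thresholds, and the call was lost when replicate 1 or replicate 2 was left out (adjusted p = 0.152 and 0.194, limma). Its paralogue Suv39h2 had 16, 46 and 44 and was under the threshold on all arrays with each of its 3 probes (-0.52 ± 0.43).

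Of the H3K36 and H3K79 enzymes, Nsd3, an H3K36 methyltransferase, had 1737, 982 and 686 (3.03 ± 0.18), and its second probe was also called. Nsd1, which dimethylates H3K36, had 142, 242 and 178 with 1 of 2 probes (0.90 ± 0.74, adjusted p = 0.0456, limma). Its value on replicate 1 was just above the threshold and those on replicates 2 and 3 were well above it, and the call was lost without replicate 2 or replicate 3 (adjusted p = 0.277 and 0.0793, limma). Dot1l, the methyltransferase of H3K79, had 35, 26 and 36, all under the thresholds (-0.61 ± 0.21). Among the SET domain genes of other function Setd3, an actin histidine methyltransferase, had 3218, 1718 and 1242 (3.84 ± 0.18). Its second probe was also called but was much dimmer, at 257, 153 and 124 (0.75 ± 0.18). Setd5, at 125, 95 and 73 (0.17 ± 0.19, adjusted p = 0.241), lay at the threshold, and Setd4, at 43, 25 and 28 (-0.65 ± 0.07), lay below it.

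The demethylases of H3K4 were called in 2 of 5 genes (40.0%), close to the 39.8% of all named genes. By probes it was 2 of 10 (20.0%), beside 31.5% of named probes. Kdm5b, which removes H3K4 trimethylation, had 655, 449 and 287 (1.87 ± 0.25). Kdm1a, the flavin-dependent demethylase of the CoREST complex, had 329, 185 and 74 (0.70 ± 0.32, adjusted p = 0.00813). It was above the threshold on every array, but its call was lost without replicate 2 (adjusted p = 0.0703, limma). The X-linked Kdm5c had 346, 152 and 56 (0.54 ± 0.44) and missed the adjusted threshold (adjusted p = 0.0537). Replicate 3 was at its threshold, and without that array Kdm5c was called (adjusted p = 4.15e-04, limma). Its Y-linked homologue Kdm5d had 19, 29 and 21 (-0.79 ± 0.16), and Kdm1b, a relative of Kdm1a, had 44, 40 and 44 (-0.44 ± 0.24).

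Of the demethylases of H3K9 and H3K36, Kdm4c had 793, 410 and 179 (1.71 ± 0.26) with 1 of 2 probes. Its second probe was below the threshold on all arrays (-1.04 ± 0.06). Kdm2a, which removes H3K36 dimethylation and binds CpG islands, had 189, 236 and 148 (0.89 ± 0.52, adjusted p = 0.0149, limma). The call of Kdm2a was lost without replicate 2 (adjusted p = 0.120, limma). The other Kdm4 genes were not called. Kdm4b had 177, 108 and 56, above the threshold on each array by small margins (0.22 ± 0.17, adjusted p = 0.119), and it was called without replicate 3 (adjusted p = 0.0407, limma). Kdm4a, at 16, 13 and 28, and Kdm4d, at 18, 16 and 16, were far below the thresholds. Kdm6a, the X-linked demethylase of H3K27, was called with both of its probes, at 576, 540 and 397 for the probe with the larger statistic (2.04 ± 0.53).

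The deacetylases of classes I and IV, which are mostly nuclear, were called in 4 of 4 genes, beside 39.8% of all named genes. Hdac2 had 3987, 1393 and 935 (3.72 ± 0.22, adjusted p = 3.32e-06) and Hdac1, its partner in the Sin3, NuRD and CoREST complexes, had 700, 359 and 262 (1.76 ± 0.12). Hdac3, the deacetylase of the NCoR complex, had 1973, 984 and 442 with 1 of 2 probes (2.89 ± 0.26). Its second probe was below the threshold on all arrays. Hdac11, the only class IV enzyme, had 4611, 1912 and 1109 (4.01 ± 0.16). It had the second smallest adjusted p of the 51 genes (1.64e-06).

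In class II 4 of 6 genes were called (66.7%), beside 39.8% of all named genes. Hdac5 had 795, 489 and 230 (1.89 ± 0.21) with 1 of 2 probes, and Hdac4 had 509, 395 and 148 (1.43 ± 0.36). Both belong to the class IIa repressors that shuttle between nucleus and cytoplasm. Hdac6, a tubulin deacetylase, had 477, 273 and 125 (1.19 ± 0.22), and Hdac10, a polyamine deacetylase, had 444, 182 and 155 (1.09 ± 0.15). Both calls were lost with a threshold at the 99th percentile of the negative controls (adjusted p = 0.178 and 0.452, limma). The remaining class IIa genes did not pass the test. Hdac7 had 132, 73 and 95 (0.21 ± 0.36, adjusted p = 0.376), close to the thresholds of replicates 1 and 2 and above that of replicate 3. Hdac9 had 16, 14 and 28 (-0.83 ± 0.23), and neither of its 2 probes exceeded a threshold.

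The sirtuins were called in 4 of 6 genes (66.7%), beside 39.8% of all named genes. Sirt2, a mostly cytoplasmic deacetylase, had 6762, 2611 and 1631 (4.52 ± 0.19), the smallest adjusted p of the 51 genes (1.42e-06). Sirt7, a nucleolar enzyme that removes acetyl groups from H3K18, had 2796, 1883 and 1347 (3.86 ± 0.34). The mitochondrial Sirt3 had 1557, 819 and 650 (2.87 ± 0.22) and the mitochondrial Sirt5, a desuccinylase, had 491, 161 and 95 (0.88 ± 0.33). For both of these genes each of 2 probes was called, the second at 0.75 ± 0.34 for Sirt3 and 0.32 ± 0.18 for Sirt5. Sirt1 and Sirt6, which like Sirt7 are nuclear, were not called. Sirt1 had 156, 59 and 26 (-0.22 ± 0.38) with its only probe, above the threshold on replicate 1 and below it on the other arrays. Sirt6 had 32, 30 and 28 (-0.66 ± 0.12) and was below the threshold on all arrays with both probes.

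Of the acetyltransferases, Kat8, which acetylates H4K16, had 1415, 601 and 348 (2.41 ± 0.15, adjusted p = 7.41e-06). Kat6b, a MYST family enzyme that acetylates H3K23, had 931, 768 and 539 (2.53 ± 0.45) with 1 of 5 probes. Kat2a, the acetyltransferase of the SAGA and ATAC complexes, had 409, 255 and 175 (1.25 ± 0.18) with 1 of 2 probes. Kat7, which acetylates H3K14 with a Brpf partner, had 383, 175 and 74 (0.73 ± 0.35, adjusted p = 0.00850), and its call was lost without replicate 2 (adjusted p = 0.0850, limma). Not called were Kat2b, the paralogue of Kat2a, at 132, 76 and 26 (-0.19 ± 0.37), and Kat5, the catalytic subunit of the Tip60 complex, at 118, 57 and 21 (-0.35 ± 0.37). Both lay near the threshold on replicates 1 and 2 and below it on replicate 3.

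The bromodomain genes Brd2 and Brd3 of the BET family, which bind acetylated histones, stood high above their thresholds. Brd2 had 3934, 2625 and 1170 (4.11 ± 0.29) and Brd3 had 3537, 2585 and 2057 (4.31 ± 0.47). Both probes were called for each of these genes. Brd7, a subunit of the PBAF remodelling complex, had 795, 266 and 184 (1.55 ± 0.25), with 2 of 3 probes called. Brd8, a subunit of the Tip60 complex, had 314, 167 and 147 (0.91 ± 0.20).

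Probes of 1 gene often disagreed. Among the 29 enzyme genes with several probes, all probes were called for 8 (27.6%), some for 11 (37.9%) and none for 10 (34.5%), beside 11.6%, 40.0% and 48.4% of all named genes with several probes. Genes with 1 probe were called in 16 of 22 (72.7%), beside 33.7% of all such genes, and genes with several probes in 19 of 29 (65.5%), beside 51.6%. When more than 50% of the probes of a gene had to be called, 25 of 51 enzyme genes passed (49.0%), beside 27.7% of all named genes. Of the called genes, 10 did not pass under this rule, among them Ehmt1, Ehmt2, Hdac3, Hdac5, Kat2a, Kat6b, Kdm4c, Nsd1 and Setd7. Which exons or isoforms the probes match was not analysed here.

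**Figure D3:**
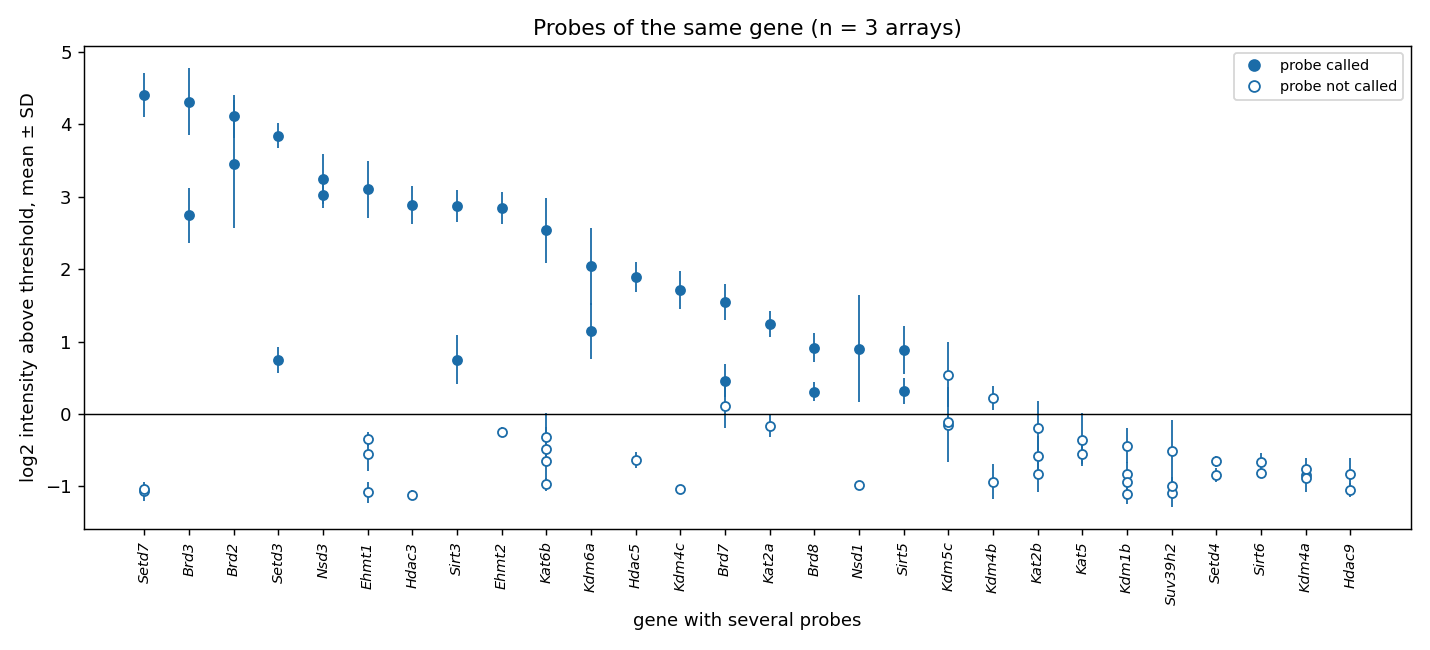
Level, the mean log2 difference from the threshold, with its SD (vertical axis, n = 3 arrays), of every probe of 28 enzyme genes with several probes (horizontal axis, ordered by their highest probe). Filled points are called probes and open points are not. Setd7, Hdac3 and Ehmt2 each have 1 probe far above the threshold and the others below it.

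The called probes of the enzyme genes had a median SD of 0.26 over the arrays, beside 0.22 for all 8931 called probes. Of these 46 probes 24 were lowest on replicate 1 (52.2%), 5 on replicate 2 (10.9%) and 17 on replicate 3 (37.0%), beside 30.7%, 25.1% and 44.2% of all called probes. Their median deviation from the mean of the probe was -0.11, 0.08 and 0.10 log2 on replicates 1, 2 and 3, beside 0.05, 0.00 and -0.05 for all called probes. The median deviation on replicate 1 was thus 0.16 log2 below that of all called probes. This difference is a description of 46 probes on 3 arrays and was not tested.

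Taking the most variable called probe of each gene, the 6 genes with the largest SD included Brd2, Nsd1, Kdm6a, Kdm2a and Brd3, and each of these 5 probes was lowest on replicate 1. For Brd2 this was the probe with the smaller statistic, which had intensities of 1278, 1725 and 1289, or 2.44, 3.85 and 4.06 log2 above the thresholds (SD 0.88), while its other probe was lowest on replicate 3, at 3.96, 4.45 and 3.93 (SD 0.29). For Nsd1 these differences were 0.06, 1.26 and 1.4, for Kdm2a 0.29, 1.23 and 1.15, and for Kdm6a 1.43, 2.26 and 2.43. For Brd3 they were 3.80, 4.42 and 4.72. Replicate 1 was also the array without the corneal markers, whose differences were -0.27, 6.99 and 8.21 for Krt12. The part of corneal RNA in the levels of these 5 genes was not tested. All 5 were above the threshold on every array, which is nearly given by their call. Replicate 1 stood highest for others, among them Sirt2, Hdac2, Hdac11 and both probes of Sirt5. For Brd7 the array that stood lowest depended on the probe, being replicate 2 for the probe with the largest statistic and replicate 1 for the other called probe (0.20, 0.58 and 0.61).

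**Figure D4:**
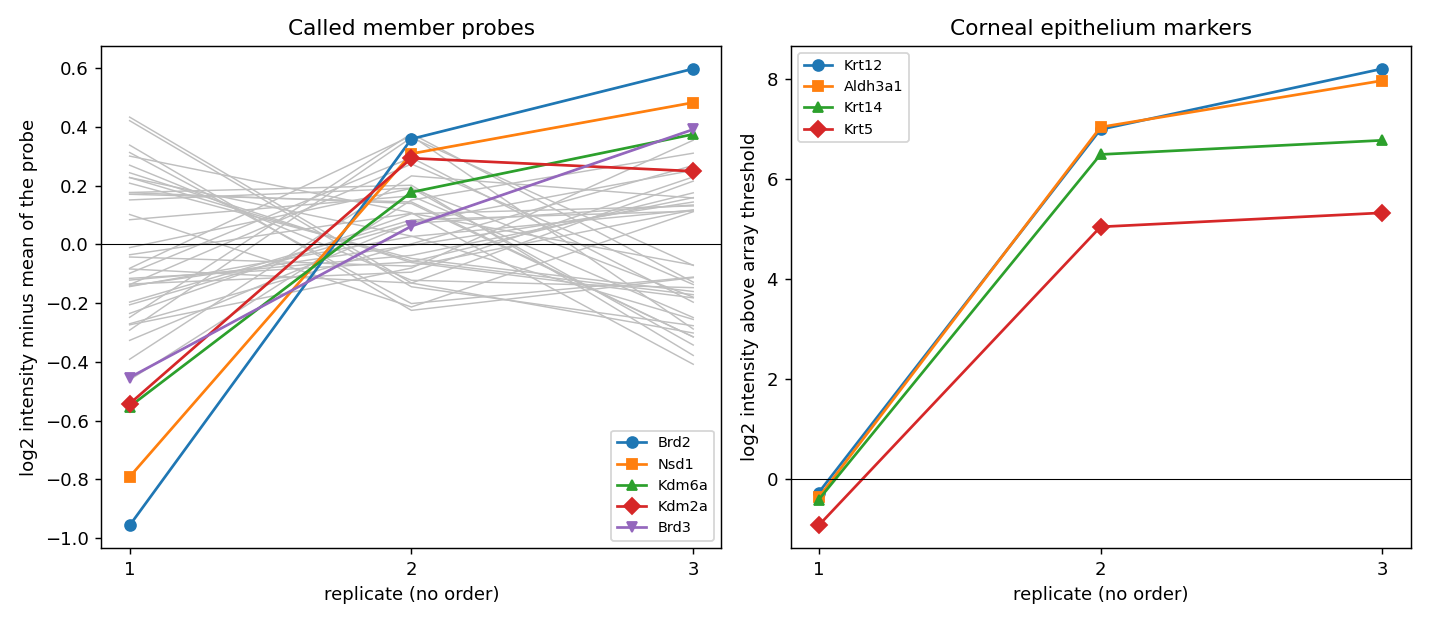
Left, log2 intensity minus the mean of the probe over the arrays (vertical axis) on replicates 1, 2 and 3 (horizontal axis) for 43 called probes, with 5 genes of large SD in colour. Right, log2 intensity above the array threshold of 4 corneal epithelium markers on the same arrays. Lines join the values of 1 probe. The 5 coloured probes are lowest on replicate 1, and the corneal markers are below the threshold there and at 5.04 to 8.21 on the other arrays.

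The partner genes with which these enzymes act were called in 100 of 141 (70.9%), beside 39.8% of all named genes, over 7 lists. Methyltransferases and demethylases with symbols outside the chosen families were called in 16 of 24 (66.7%). Prmt5 and Prmt1, the main symmetric and asymmetric arginine methyltransferases, were at 3.80 ± 0.15 and 4.60 ± 0.28, and Kmt5b, which methylates H4K20, was at 2.74 ± 0.10. Not called were the Y-linked Uty (-1.15 ± 0.18), a homologue of Kdm6a, and the H3K9 demethylase Phf8 (-0.02 ± 0.18).

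Subunits of the COMPASS complexes were called in 9 of 11 (81.8%), beside 39.8% of all named genes. Psip1, a reader of H3K36 methylation that tethers Kmt2a, was at 2.80 ± 0.05, the CpG-binding subunit Cxxc1 at 3.22 ± 0.12 and the core subunit Dpy30 at 3.37 ± 0.28. The core subunit Rbbp5 was not called with any of 3 probes (0.01 ± 0.24). Subunits of deacetylase corepressors were called in 20 of 26 (76.9%), beside the same 39.8%. Among them were the histone chaperone Rbbp7 (6.14 ± 0.07) and the Sin3 subunits Suds3 (4.68 ± 0.20) and Brms1 (2.81 ± 0.05). Rcor1, the scaffold that joins Kdm1a to Hdac1 and Hdac2, was also called (3.39 ± 0.22). Its paralogues Rcor2 (-0.34 ± 0.14) and Rcor3 (-0.67 ± 0.20) were not called.

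Other acetyltransferases and their partners were called in 29 of 35 (82.9%), beside 39.8% of all named genes. Morf4l2, a subunit of the Tip60 complex, was at 5.89 ± 0.27 and the Tip60 ATPase Ep400 at 3.28 ± 0.08. Kat14 of the ATAC complex was at 4.05 ± 0.15 and Msl1, a scaffold of Kat8, at 3.49 ± 0.13. Kansl3, a subunit of another Kat8 complex, was not called (-0.76 ± 0.16), nor was Brpf1 (-0.10 ± 0.27), a scaffold of Kat6b and Kat7. Ep400, Morf4l2 and Brd8 of the Tip60 complex were called while its catalytic subunit Kat5 was not, on different probes whose levels cannot be ranked. Kat5 was not the only uncalled subunit, since Ing3 of this complex was not called either (-0.72 ± 0.31).

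Readers and partners of H3K9 methylation were called in 8 of 13 (61.5%), beside 39.8% of all named genes. Of their probes 37.5% were called, beside 31.5% of named probes. Trim28, which brings Setdb1 to retroelements, was at 4.11 ± 0.19, and Atf7ip, which stabilises Setdb1, was at 2.27 ± 0.26. Of the genes of the heterochromatin protein HP1, Cbx3 was called (1.35 ± 0.50, adjusted p = 0.00232) with 1 of 3 probes, while Cbx1 (-0.63 ± 0.08) and Cbx5 (-0.25 ± 0.12) were not. Enzymes that supply or consume the cofactors were called in 12 of 17. Idh1 and Idh2, which make 2-oxoglutarate, were at 5.10 ± 0.15 and 3.55 ± 0.01, and Acly, which makes acetyl-CoA for the nucleus and cytoplasm, was at 5.02 ± 0.26. Acetyl-lysine readers outside the numbered Brd genes were called in 6 of 15 (40.0%), close to the share of all genes. Smarca4, an ATPase of the BAF complexes, was at 4.44 ± 0.18, while Brdt, the testis member of the BET family, was at -0.57 ± 0.31 and was not called.

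The start regions of the enzyme genes were read from the RefSeq table of the assembly GRCm38.p6, as windows from 250 bases before to 50 bases after an annotated start, and 42 of 51 genes had at least 1 window. Their CpG dinucleotides were counted because the study concerns methylation in RPE, and where a gene had several windows the highest count was taken. The median was 24 CpG for the 27 called genes, with a range of 12 to 46, and 21 for the 15 genes not called, with a range of 1 to 49, beside 17 for 12433 measured genes with a window. At least 10 CpG were found in 27 of 27 called genes, in 13 of 15 not called (86.7%) and in 66.8% of measured genes. The motif GGGCGG, on either strand, was found in 81.5% of called genes, 53.3% of those not called and 55.2% of measured genes, and TATAAA, on either strand, in 0 of 27, 2 of 15 (13.3%) and 14.3%. The 2 were Hdac9 and Kdm5d. These counts are descriptions of sequence, with no test.

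These windows are shown to compare a called gene with a CpG-rich and a CpG-poor gene that were not called. Hdac2, at chr10:36974294-36974593 on the plus strand, was called and has 36 CpG in capitals. Sirt1, at chr10:63338986-63339285 on the minus strand, has 47 CpG in capitals and was not called. Hdac9, at chr12:34917046-34917345 on the minus strand, has 0 CpG, with TATAAA in capitals, and was not called. It is the poorer of the 2 windows of Hdac9, of which the other has 3 CpG, and is shown because it holds this motif. Each is written 5′ to 3′ in the direction of the gene, in build GRCm38.p6.
Hdac2: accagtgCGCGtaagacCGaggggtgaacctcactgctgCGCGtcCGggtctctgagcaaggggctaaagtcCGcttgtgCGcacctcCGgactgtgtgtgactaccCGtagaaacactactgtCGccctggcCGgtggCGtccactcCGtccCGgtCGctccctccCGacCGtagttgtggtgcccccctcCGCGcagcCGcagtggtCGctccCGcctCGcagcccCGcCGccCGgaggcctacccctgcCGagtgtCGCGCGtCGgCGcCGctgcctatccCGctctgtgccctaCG
Sirt1: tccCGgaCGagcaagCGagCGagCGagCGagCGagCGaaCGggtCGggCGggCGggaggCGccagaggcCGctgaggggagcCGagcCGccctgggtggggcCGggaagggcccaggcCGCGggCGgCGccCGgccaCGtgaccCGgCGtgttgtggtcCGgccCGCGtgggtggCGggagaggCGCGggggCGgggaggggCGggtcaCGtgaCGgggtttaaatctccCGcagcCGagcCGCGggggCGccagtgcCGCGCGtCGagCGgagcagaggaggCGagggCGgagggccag
Hdac9: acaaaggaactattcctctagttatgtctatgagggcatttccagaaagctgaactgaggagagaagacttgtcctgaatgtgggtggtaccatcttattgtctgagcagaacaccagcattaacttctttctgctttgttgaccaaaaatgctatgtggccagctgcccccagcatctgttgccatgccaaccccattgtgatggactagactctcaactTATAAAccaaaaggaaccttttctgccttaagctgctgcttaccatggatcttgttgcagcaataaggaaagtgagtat

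**Figure D5:**
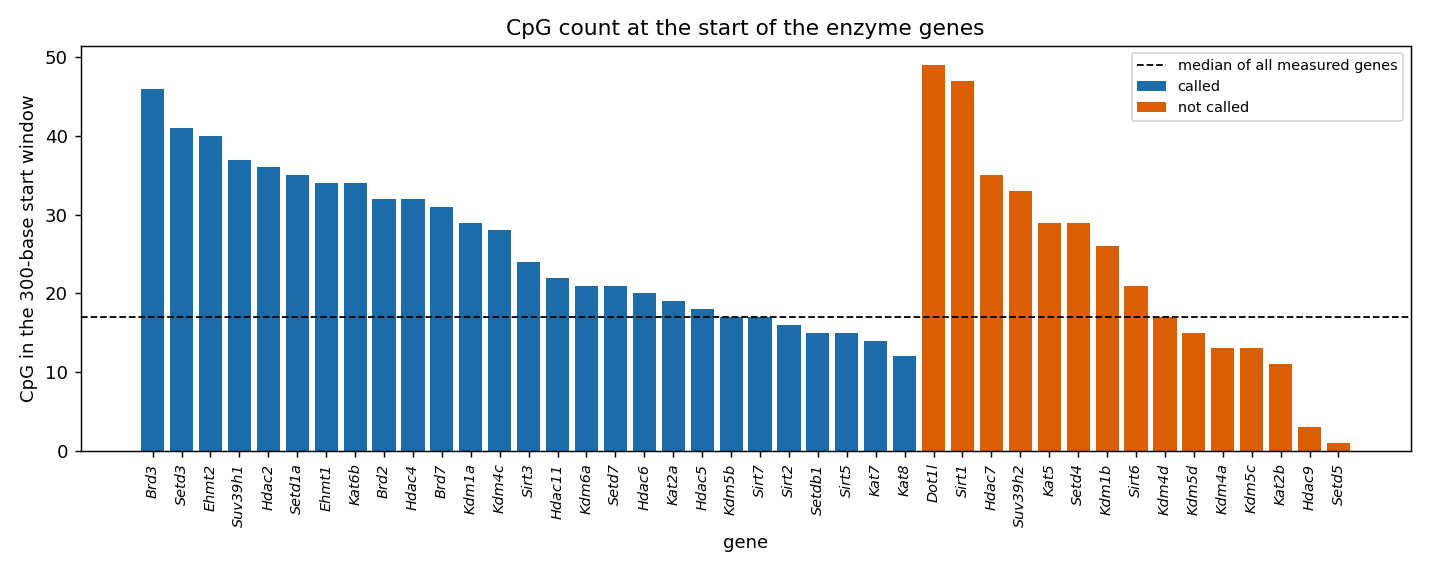
CpG count in the window of 300 bases at the gene start (vertical axis, highest of a gene's windows) for the 42 enzyme genes with a window (horizontal axis), called genes at left and genes not called at right. The dashed line is the median of all measured genes, 17. Dot1l and Sirt1, which were not called, have the highest counts, 49 and 47.

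Across 13 alternative ways of processing, 16 enzyme genes were called every time. They were Brd2, Brd3, Brd7, Hdac1, Hdac2, Hdac4, Hdac11, Kat8, Kdm5b, Kdm6a, Nsd3, Setd1a, Setd3, Sirt2, Sirt3 and Sirt7. Under none of these alternatives were 11 called, and they were Dot1l, Hdac9, Kat5, Kdm1b, Kdm4a, Kdm4d, Kdm5d, Setd4, Sirt1, Sirt6 and Suv39h2. The other 24 changed with at least 1 choice.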

How the data were processed

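RNA from 3 RPE samples was measured on MEEBO arrays. Per the file headers, the authors deposited for each array a GenePix Pro 4.1.1.4 export with the intensity of every spot, as a median foreground and a median local background, not normalized, and a flag, a score by which the software marks spots not found. The deposited value table gives intensity as normalized by the authors, which equalled foreground minus background times 1 factor per array (2.17, 3.64 and 5.05), and was used only as an alternative.

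Intensities were corrected by normexp (offset 50, all spots), taken to log2 and quantile normalized over mouse probes and the 94 spots of the class named mCN in limma 3.58.1 (R 4.3.3). The sources do not say what this class is, and every call rests on taking it as negative controls. Values minus the 95th percentile of these spots were tested with lmFit and eBayes (intercept only, one-sided), with Benjamini-Hochberg adjustment over 35078 mouse probes, and p-values measure only the spread between these samples. The number of arrays limits the precision. In simulated data, 54% of probes set 0.5 log2 above the threshold were recovered, 96% at 1 and 100% at 2, and 11 of the other probes were called. Only 50 of 35078 simulated probes were set at each height. Adjustment with so few probes above the threshold is stricter than in the data, so these shares do not measure the sensitivity of the calls. Only replicate 3 belonged to its scan session, so array and session cannot be told apart. All columns of sample values were assigned.

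Probes were named through their accession in the RefSeq gene table of GRCm38.p6, with 1 gene for 23071 probes and none for 12007. The members, classes and partner lists were chosen with earlier results of these data known. Values on every array were given, by rule, for up to 4 called genes of largest limma statistic and up to 3 uncalled genes per class, and for the 6 called genes of largest SD, with the other enzyme genes named beside them, and 1 enzyme gene is counted in the totals but not reported here by name. Up to 4 called and 3 uncalled genes were named per partner list, and the uncalled ones and Cbx3 were picked by role after their values had been seen. Alternatives were plain subtraction, no normalization, cyclic loess, the 90th and 99th percentile as threshold, each replicate left out, an intensity trend in the prior, flagged spots left out, a rule with no model, the methods' limit of 500 on the deposited values, and more than 50% of probes called.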

Additional observations from a re-analysis of the deposited data

How the results depend on the processing

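The count of called enzyme genes was 35 in the main analysis and 24 to 40 over the alternatives, lowest with a threshold at the 99th percentile of negative controls and highest with the 90th. The share of all named genes moved with it and was 30.3% and 53.7% at these thresholds. With the 99th percentile, 27 probes of enzyme genes, 3 demethylases and 2 acetyltransferases were called, and the levels of Kat7, Kdm1a and Suv39h1 fell below the threshold (-0.10, -0.13 and -0.46). The calls of Brd8, Hdac6, Hdac10, Kat2a, Kdm2a, Nsd1, Setdb1 and Sirt5 were also lost there. With the 90th percentile 13548 mouse probes were called. When more than 50% of the probes of a gene had to be called, 5 of 13 methyltransferases and SET domain genes (38.5%) and 2 of 6 acetyltransferases (33.3%) passed. Of the partner genes 63 of 141 (44.7%) passed, beside 27.7% of all named genes. Leaving out 1 replicate gave 30 to 36 enzyme genes and 3 to 7 demethylases, beside 36.3% to 40.5% of all named genes. Leaving out replicate 2 lost Kat7, Kdm1a, Kdm2a, Nsd1 and Suv39h1, replicate 1 lost Suv39h1, and replicate 3 lost Nsd1 and gained Kdm4b and Kdm5c. Kdm5c was also called with no normalization, cyclic loess, an intensity trend, flagged spots left out, the rule without a model and the methods' limit. Suv39h1 was lost with plain subtraction, no normalization, the intensity trend and the methods' limit, and Nsd1 with plain subtraction and cyclic loess. The causes were not tested. Relative to all called probes, the median deviation of called enzyme probes on replicate 1 was -0.16 in the main analysis and -0.18 with plain subtraction, -0.15 with no normalization and -0.16 with cyclic loess, alternatives chosen after seeing the data. No paired analysis was possible because there was only 1 group. In simulated data about 54% of probes at 0.5 log2 above the threshold were recovered. The adjustment was stricter there than in the data, so this share does not measure how many dim probes the calls missed.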

Other observations

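The share of called probes differed with the prefix of the probe identifier, which the sources do not explain. With the prefix mMC, 33 of 54 probes of enzyme genes were called (61.1%), beside 33.7% of named probes with it. With mMR it was 6 of 18 (33.3%), beside 32.9%, and with mMA 7 of 28 (25%), beside 17.8%. Setd3, Nsd3 and Sirt5 were called with a probe of this prefix as their strongest by the limma statistic.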
